A study of Mus musculus with 4 samples.

Results

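Accessible regions with their summit in an exon and away from gene starts were examined in ATAC-Seq peak lists of sorted mouse heart nuclei. In this assay a transposase cuts DNA that is not covered by nucleosomes and adds sequencing adapters there, so that peaks of cut fragments mark open chromatin. A peak was taken when its summit lay in an exon of a protein-coding gene of the GENCODE annotation, more than 1000 bp and at most 100000 bp from the nearest start of a protein-coding transcript. This rule took 6492 of the 143920 peaks of both lists, namely 3474 of the 78912 peaks from GFP- nuclei (4.40%) and 3018 of the 65008 peaks from GFP+ nuclei (4.64%). The members were chosen by position, and their area, their rank and their overlap between lists had no part in the choice.

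The nuclei came from whole hearts of male NuTRAP/Cdh5-Cre mice on a C57BL/6 background, aged 8 to 12 weeks. All animals carried both the Cdh5-Cre transgene, which drives recombination in endothelial cells and their descendants, and the NuTRAP reporter, which adds a GFP tag to ribosomes of recombined cells and by which, per the labels, endothelial nuclei were recognised in sorting. GFP+ nuclei were therefore those of cells with an endothelial history, and GFP- nuclei were a mixture of all other heart cells. There were 4 libraries, 2 replicates from each population, made from 100 to 50000 nuclei, but each population has 1 peak list called on both replicates together. No value per replicate was available for a test, so the differences below have no replicate check, and the intervals given cover counting error only. Read depth per library is not analysed here.

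Exons hold the sequence that remains in the mature RNA, and most of the accessible DNA in a nucleus lies outside them, at promoters and at enhancers in introns and between genes. Some exons also contain binding sites for transcription factors, so that the same bases code for protein and carry regulatory sequence. Last exons are usually long and hold most of the 3' untranslated region (3' UTR), whereas internal exons are mostly short and coding.

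Genes of known cell types were used to check the labels. Of 20 endothelial marker genes, 14 had a peak within 1000 bp of a protein-coding start in both lists, 6 only in the GFP+ list and 0 only in the GFP- list. Of 20 fibroblast genes, 9 had such a peak in both lists, 10 only in the GFP- list and 0 only in the GFP+ list, and of 12 pericyte and smooth muscle genes 6 had one in both lists and 5 only in the GFP- list. Among cardiomyocyte genes, 18 of 20 had one in both lists, 1 only in the GFP+ list and 0 only in the GFP- list. Macrophage genes had almost none, since 8 of 10 lacked a start peak in either list, and 3 of 6 Schwann cell genes lacked one. Cardiomyocyte genes thus did not separate the populations at their starts, and the part of carried-over nuclei or DNA in any overlap below was not tested.

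Short sequence words known to be preferred by factor families of the heart were read in the 200 bp around each summit, and examples from coding members show what such an exonic site looks like. The 30 bases below lie wholly within the exon that holds the summit, are written 5' to 3' on the strand of the gene in the GRCm38 build (mm10), and carry the word in capitals, either as CAGGAAGT for ETS factors, CCATTGT for SOX, TGANTCA for AP-1, AACAGCTG for TCF21 and CTAAAAATA for MEF2 or as its reverse complement. They are the 2 largest coding members by area in a class that met these conditions, for the ETS and SOX words among peaks found only in the GFP+ list, for the AP-1 and TCF21 words among those only in the GFP- list, and for the MEF2 word among peaks of the GFP+ list that were shared.
Fmo2 exon 3 of 9, chr1:162888760-162888789, minus strand, ETS word, GFP+ only: ggacttccccaACTTCCTGcacaactctaa
Btbd18 exon 5 of 5, chr2:84666280-84666309, plus strand, ETS word, GFP+ only: gaagcttgtggACTTCCTGtatacgtcaga
Tnfrsf26 exon 5 of 8, chr7:143614871-143614900, minus strand, SOX word, GFP+ only: aaatgcaatgccACAATGGacactgtgtgt
Nxpe2 exon 3 of 6, chr9:48326428-48326457, minus strand, SOX word, GFP+ only: tgacagacttcaACAATGGcacctacctca
Crcp exon 5 of 6, chr5:130048935-130048964, plus strand, AP-1 word, GFP- only: gctgcagctgcTGAATCAcaggccgatgac
Fam83a exon 4 of 4, chr15:58010030-58010059, plus strand, AP-1 word, GFP- only: ggtgcccagggTGACTCAcccctggaggcc
Prox2 exon 2 of 5, chr12:85094881-85094910, minus strand, TCF21 word, GFP- only: caaggccgaggAACAGCTGctcatctggtg
Man2a2 exon 4 of 24, chr7:80368928-80368957, minus strand, TCF21 word, GFP- only: gaaccggatagAACAGCTGgaacaactgct
Fmo5 exon 9 of 9, chr3:97651809-97651838, plus strand, MEF2 word, shared: catcctggctTATTTTTAGatgtggcagcg
Zan exon 23 of 88, chr5:137452497-137452526, minus strand, MEF2 word, shared: tttggtctgccCTAAAAATAgcaggtactc

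Most exonic peaks were found in both populations. A peak was called shared when it overlapped a peak of the other list by at least 1 bp. Of the GFP- members, 2454 were shared and 1020 were found only in the GFP- list, a share of 29.4% (Wilson 95% interval 27.9 to 30.9%), beside 30.3% of all GFP- peaks. Of the GFP+ members, 2510 were shared and 508 were found only in the GFP+ list, a share of 16.8% (15.5 to 18.2%), beside 13.4% of all GFP+ peaks. In the same range of distance from starts, 33.1% of intronic and 33.8% of intergenic GFP- peaks were found in the GFP- list alone. Exonic GFP- peaks were thus shared more often than peaks outside exons in that range. In the GFP+ list the order was the opposite, with 16.1% of intronic and 14.9% of intergenic peaks found in that list alone, and the interval of the exonic share held the intronic value. Both shares depend on the unequal lengths of the lists: with the GFP- list limited to its largest peaks, as many as the GFP+ list holds, 21.3% of GFP- and 25.2% of GFP+ exonic members lay in 1 list, beside 23.2% and 20.8% of all peaks.

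Coding sequence stood apart among the peaks found only in endothelial nuclei. A member was called coding when its summit lay in the coding sequence of any protein-coding transcript, otherwise untranslated, and otherwise in an exon that occurs only in noncoding transcripts of a protein-coding gene, such as transcripts with a retained intron. The last kind, called noncoding transcripts below, also holds the few exons of transcripts annotated for nonsense-mediated decay. Coding summits made up 232 of 508 GFP+ only members, or 45.7% (41.4 to 50.02%), but 368 of 1020 GFP- only members, or 36.1% (33.2 to 39.1%). The difference was 9.59 points (Newcombe 95% interval 4.37 to 14.8). Shared members were close to the GFP- only class, with 914 of 2510 in the GFP+ list (36.4%) and 890 of 2454 in the GFP- list (36.3%). Noncoding transcripts held fewer GFP+ only summits, 97 of 508 (19.1%), against 263 of 1020 for GFP- only (25.8%), a difference of -6.69 points (-10.9 to -2.22), and retained introns were the most frequent type among them, with 69 and 199 members. The 3' UTR held 171 of the GFP+ only members (33.7%) and 372 of the GFP- only members (36.5%), a difference of -2.81 points with an interval that includes 0 (-7.79 to 2.31). Summits in a 5' UTR were rare, with 8 GFP+ only and 17 GFP- only members.

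**Figure D1:**
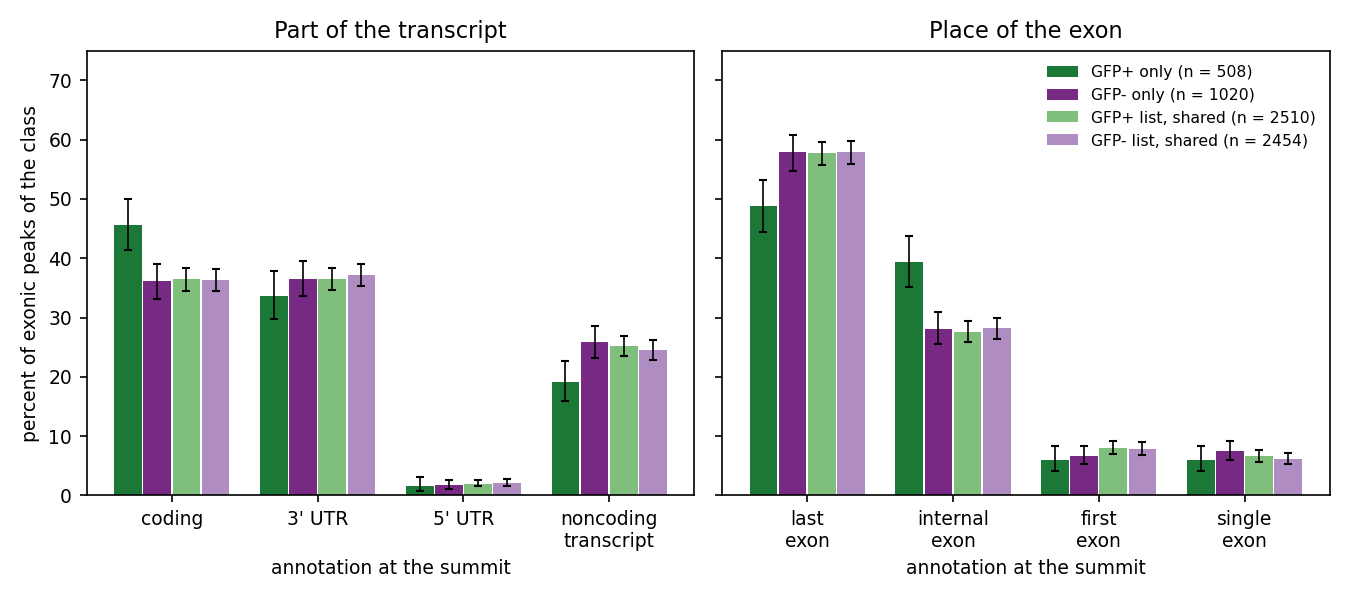
Percent of exonic peaks of each class (y axis, bars from 0, error bars are Wilson 95% intervals of counting error) by the part of the transcript at the summit (left) and by the place of the exon in its transcript (right). The GFP+ only class, in dark green, stands above the other 3 classes for coding sequence (45.7%) and internal exons (39.4%) and below them for last exons (48.8%).

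The same class also differed in the place of the exon. The place was read from 1 reference transcript among those with an exon at the summit, a protein-coding one where there was any. Last exons held 248 of 508 GFP+ only members, or 48.8% (44.5 to 53.2%), against 590 of 1020 GFP- only members, or 57.8% (54.8 to 60.8%), a difference of -9.02 points (-14.3 to -3.72). Internal exons held 200 GFP+ only members, or 39.4% (35.2 to 43.7%), against 287 GFP- only members, or 28.1% (25.5 to 31.0%), a difference of 11.2 points (6.20 to 16.3). Shared members of the GFP+ list had 57.7% of summits in last and 27.6% in internal exons, again like the GFP- only class. First exons held 30 GFP+ only and 67 GFP- only members, and single exons 30 and 76. Within coding members, 180 of 232 GFP+ only summits (77.6%) lay in internal exons, against 246 of 368 for GFP- only (66.8%) and 592 of 914 for shared members of the GFP+ list (64.8%). Read the other way, 23.3% of GFP+ members that were both coding and internal were found in the GFP+ list alone (180 of 772, 20.5 to 26.4%), whereas the share was 13.0% for coding sequence of last exons (43 of 331, 9.79 to 17.04%). In the GFP- list these shares were 29.4% and 28.5%.

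The coding share moved with peak size. Size was taken as the area of a peak, the significance added up along it by the authors' caller, and is given below as a rank from 0 to 100 among the peaks of the same list. GFP+ only members had a median rank of 15.7 and GFP- only members of 22.1, against 48.4 and 53.0 for shared members of the GFP+ and the GFP- list. Between ranks 0 and 25, 170 of 351 GFP+ only members were coding (48.4%, 43.3 to 53.6%), against 210 of 549 GFP- only members (38.3%, 34.3 to 42.4%). Between 25 and 50 the shares were 52 of 120 (43.3%, 34.8 to 52.3%) and 94 of 278 (33.8%, 28.5 to 39.6%). Between 50 and 75 the order turned, with 9 of 36 (25%, 13.8 to 41.1%) and 52 of 159 (32.7%, 25.9 to 40.3%), and above 75 there was 1 GFP+ only member. When peaks below the median area of their list were dropped before the lists were overlapped, the coding share was 31.0% in both classes and the difference was 0.00338 points (-7.54 to 8.03). Under that limit a peak of either list whose partner in the other list had been dropped also counted as found in 1 list, so that the classes are not those above. The coding share of GFP+ only members was the higher of the pair in both ranges below rank 50, but the intervals lay apart only below rank 25. Above rank 50 the members were too few to separate the classes. The coding share also moved with base composition. In windows with a GC content of 55% or more, 135 of 224 GFP+ only members were coding (60.3%) and 202 of 392 GFP- only members (51.5%), and below 45% the counts were 15 of 53 (28.3%) and 18 of 121 (14.9%). The GFP+ only share was the higher of the pair in each of the 4 GC ranges examined, but in each the intervals of the pair overlapped. The part of peak size and of base composition in the difference was not tested.

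Exonic sequence held more summits per base than introns or intergenic DNA. At the stated distance from starts, 76.0 Mb of the genome was exonic, or 5.04% of all such sequence, and it held 6.48% of GFP- and 6.93% of GFP+ peak summits in this range. The GFP- list had 45.7 summits per Mb of exonic sequence (exact Poisson interval 44.2 to 47.3), 41.0 per Mb of intron and 29.1 per Mb of intergenic sequence. The GFP+ list had 39.7 (38.3 to 41.2), 33.5 and 23.1. All bases of the range were counted, without removal of assembly gaps, repeats or blacklisted regions. The part of these, and of distance within the range, in the densities was not tested. Among peaks found only in the GFP+ list, coding sequence was the densest with 8.30 per Mb (7.26 to 9.44), followed by untranslated sequence with 5.85 (5.03 to 6.78), noncoding transcripts with 5.56 (4.51 to 6.79) and introns with 5.39 (5.22 to 5.57), and the last 3 do not separate beyond their intervals. Among peaks found only in the GFP- list, coding sequence had 13.2 per Mb (11.9 to 14.6), untranslated sequence 12.7 (11.5 to 14.1), noncoding transcripts 15.1 (13.3 to 17.02) and introns 13.6 (13.3 to 13.8), and each of the 3 exonic intervals held the intron value.

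**Figure D2:**
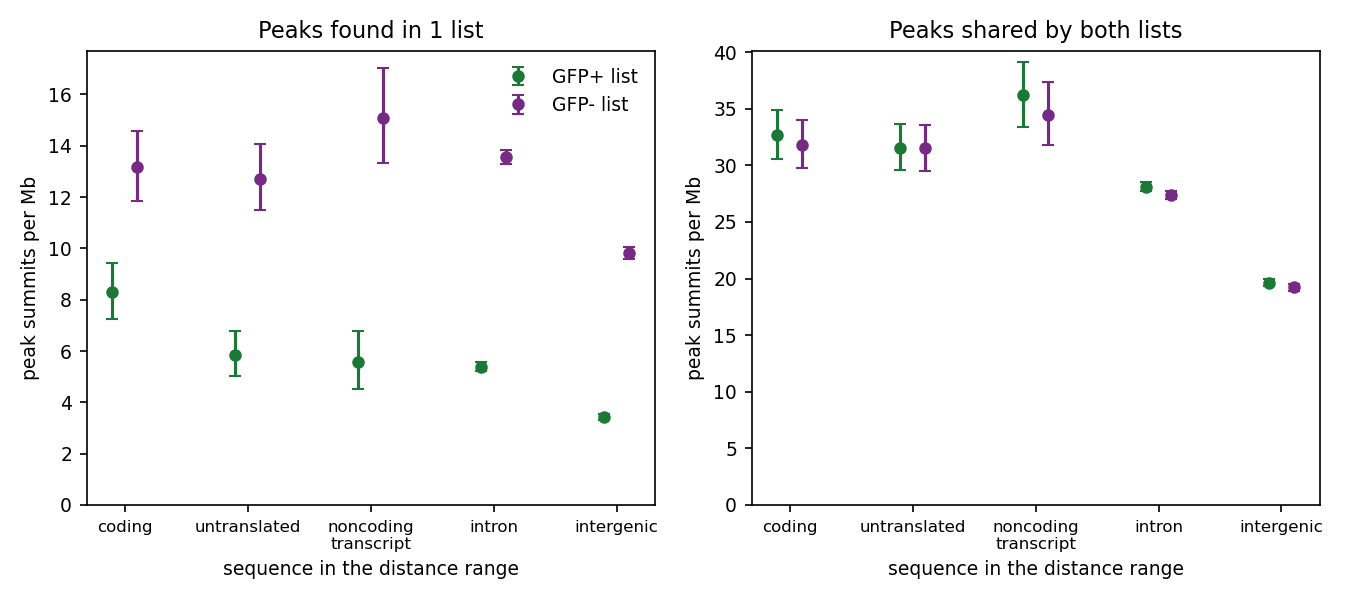
Peak summits per Mb (y axis, from 0, error bars are exact Poisson 95% intervals) in coding, untranslated, other exonic, intronic and intergenic sequence in the distance range from starts (x axis), for peaks found in 1 list (left) and peaks shared by both lists (right). In the left panel coding sequence is the highest of the GFP+ points at 8.30 per Mb, while the GFP- points for exons lie around the intron value of 13.6.

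Exonic peaks had a longer median than intronic peaks of the same class and did not always keep to their exon. The median length was 353 bp for GFP+ only, 363 bp for GFP- only, 468.5 bp for shared GFP+ and 511.5 bp for shared GFP- members. For intronic peaks of these classes it was 341, 350, 419 and 468 bp. The whole peak lay within the exon for 51.6%, 61.2%, 52.7% and 50.6% of the members. The peak of 1 GFP+ only member, 14 shared GFP+ members and 25 shared GFP- members covered a protein-coding start although its summit lay more than 1000 bp away. A start of a transcript of any type was within 1000 bp of the summit for 97 of 508 GFP+ only members (19.1%), 175 of 1020 GFP- only members (17.2%) and 543 of 2510 shared GFP+ members (21.6%). The members nearest to the lower limit of distance were Lrrc73 at 1003 bp in the GFP+ list and Gpr62 at 1006 bp in the GFP- list, and those just outside were Hes7 at 994 bp and 2610507B11Rik at 1000 bp. At the upper limit, Magi2 at 99599 bp and Efcab6 at 99997 bp were inside, and Colgalt2 at 100173 bp and Unc5c at 100166 bp were outside.

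The 5 largest exonic peaks found only in endothelial nuclei were at Sox17, Ly6e, Kif1b, Rgp1 and Sufu. The peak in Sox17, which encodes a transcription factor of arterial endothelium, was 2272 bp long (chr1:4491646-4493917) with an area of 4226 and a rank of 91.3. Its summit lay in the coding part of the last exon, 1609 bp from the start, and the peak also covered the start itself. Ly6e, a membrane-anchored surface protein, had a peak of 1857 bp in its last exon with an area of 1510 and a rank of 73.0. The other 3 lay in the 3' UTR of Kif1b, a kinesin motor, Rgp1, a subunit of a Golgi exchange factor, and Sufu, an inhibitor of GLI factors, with ranks of 69.9, 69.9 and 68.3. Sox17 was thus the only GFP+ only member above rank 75, and all of these except it had their summit in a 3' UTR.

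The 5 largest exonic peaks found only in the GFP- list ranked between 88.3 and 93.1, and 3 of them were coding. Mmp14, a membrane-bound collagenase of stromal cells, had a peak of 1320 bp (chr14:54443186-54444505) in its last exon with an area of 5182 and a rank of 93.1. Ppp1r14a, an inhibitor of myosin phosphatase in smooth muscle, had a peak of 2143 bp (chr7:29291762-29293904) in its last exon with an area of 4595 and a rank of 91.6. Both summits were coding. Kcnv2, a modifier subunit of voltage-gated potassium channels, and Ccdc32 followed with 3' UTR summits and ranks of 88.4 and 88.3, and D630003M21Rik had a coding summit in internal exon 4 of 14 with a rank of 88.4.

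Large shared exonic peaks were often part of domains that reach a start. The largest in both lists was at Brd2, a bromodomain protein that binds acetylated histones, with 5995 bp and an area of 25766 in the GFP+ list and 6984 bp and 31670 in the GFP- list, with a rank of 99.99 in both. Rap2b and Fbxl22, an F-box protein of the sarcomere, were among the 5 largest in both lists, with ranks of 99.6 and 99.5 in the GFP+ list and 99.7 and 99.6 in the GFP- list. Peaks of these 3 genes covered a protein-coding start. A930004D18Rik was also among the largest of the GFP+ list, with a rank of 99.5, and Tob2 and Kcnj11, a potassium channel subunit, completed the 5 of the GFP- list, with ranks of 99.9 and 99.4. The GFP- peaks at Tob2 and Kcnj11 also covered a start.

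Shared exonic regions held similar ranks in both populations. Of the 2454 shared GFP- members, 2212 (90.1%) had a partner peak with its summit in the same exon, and the median gap between the summits was 22 bp. Overlapping peaks of both lists were merged into regions, of which 2667 held a member, and a region took the rank of its largest peak in each list. The median rank was 54.8 in the GFP- list and 50.7 in the GFP+ list, and the median difference, GFP+ minus GFP-, was -2.27 points (exact binomial 95% interval -2.74 to -1.74) with quartiles of -11.0 and 3.93. The rank was higher in the GFP+ list for 1051 regions and lower for 1615. All 53996 shared regions had a median difference of -1.80 points. The sign depended on the length of the lists, since with the GFP- list limited to as many peaks as the GFP+ list the median was 3.16 points (2.59 to 3.70) for exonic regions and 1.68 for all, so that no direction is read from it. Exonic regions ranked over 20 points higher in GFP+ numbered 158 (5.92%), beside 5.07% of all shared regions, and those ranked over 20 points lower numbered 342 (12.8%), beside 12.1%. Coding regions (median -1.95 points, -2.71 to -1.27), 3' UTR regions (-2.67, -3.11 to -1.75) and noncoding transcripts (-2.15, -3.33 to -1.27) did not separate from each other.

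**Figure D3:**
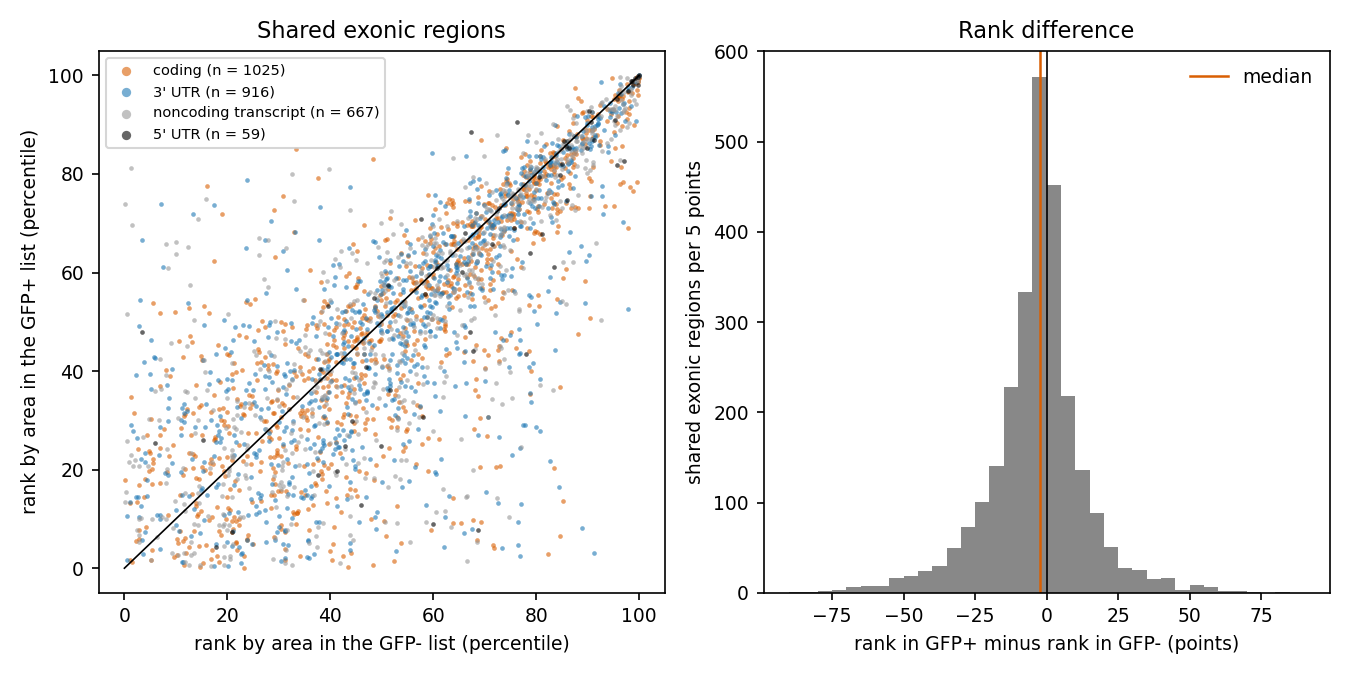
Left, percentile rank by area of 2667 shared exonic regions in the GFP- list (x axis) and the GFP+ list (y axis), 1 point a region, coloured by the part of the transcript, with the line of equal rank. Right, number of regions by rank in GFP+ minus rank in GFP- in steps of 5 points, with the median of -2.27 in orange, showing most regions near 0 and a longer tail to the left.

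The 5 shared regions with the largest differences in rank in each direction are given with both ranks. Fam124b ranked 1.19 in the GFP- list and 81.3 in the GFP+ list, and Dele1 0.212 and 73.9. Kdr, the main VEGF receptor of endothelial cells, ranked 1.55 and 69.6 in an exon of a noncoding transcript. Adam11 ranked 7.08 and 73.8, and the 3' UTR of Clec1a, a C-type lectin of endothelial and myeloid cells, 3.42 and 66.5. The largest differences in the other direction were at Lrp1, an endocytic receptor, where a 3' UTR summit ranked 91.3 in the GFP- list and 3.18 in the GFP+ list, and at Lrrc32, a docking receptor of latent TGF-beta, with 88.9 and 8.21. Slx4ip ranked 82.2 and 2.85, Angpt4, a ligand of the Tie2 receptor, 84.6 and 6.51 at coding exon 7, and Tectb 76.9 and 2.48. Each of these 10 regions thus had a peak in both lists, but in 1 of the lists its rank was below 10.

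Members at marker genes followed the sorted populations for endothelial and fibroblast genes. Endothelial markers had 15 GFP+ members, of which 6 were found only in the GFP+ list (40.0%, 19.8 to 64.3%), beside 13.4% of all GFP+ peaks, and 11 GFP- members, of which 1 was found only in the GFP- list (9.09%, 1.62 to 37.7%), beside 30.3% of all GFP- peaks. The intervals are wide at these counts. The largest of the 6 were at Sox17 (rank 91.3), at Sox18 (rank 53.8, coding part of its last exon), a related factor of vessel and lymphatic development, at Kdr (rank 36.5, coding exon 15 of 30) and at Flt1, the other VEGF receptor of this list (rank 23.9, coding exon 23 of 30). The exception in the GFP- list was Robo4, a receptor that stabilises vessels, with a coding peak in exon 12 at rank 59.7. Of 10 shared regions at endothelial genes, 7 ranked higher in the GFP+ list, with a median difference of 2.34 points beside -2.27 for all exonic regions, and the value with lists of equal length was not computed for these genes.

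Fibroblast markers had members in 1 direction only. All 4 of their GFP- members were found only in the GFP- list (an interval of 51.0 to 100%), beside 30.3% of all GFP- peaks, and there was no GFP+ member. They were at Mmp2, a gelatinase (rank 41.6, 3' UTR), Col6a3 (rank 31.2, coding exon 37), Col3a1 (rank 9.21) and Col6a2 (rank 4.56), genes of the interstitial matrix. Collagen genes as a family had 11 members in each list, of which 5 in the GFP- and 3 in the GFP+ list were found in that list alone, the latter at Col6a6, Col12a1 and Col4a2. Their intervals (21.3 to 72.0% and 9.75 to 56.6%) held the 30.3% and 13.4% of all peaks. Laminin genes had 5 of 7 GFP- members in the GFP- list alone (71.4%, 35.9 to 91.8%), in 3 genes, beside the 30.3%, and 1 of 6 GFP+ members in the GFP+ list alone, at Lamb2 (16.7%, 3.01 to 56.4%), beside the 13.4%. The largest laminin member of the GFP- only class was in coding exon 16 of Lamb1, with a rank of 72.0. Pericyte and smooth muscle genes had 1 of 6 members in each list alone, Abcc9 in GFP- (rank 61.6) and Myh11 in GFP+ (rank 27.9, 3' UTR), a share of 16.7% (3.01 to 56.4%) in both that does not separate from the shares of all peaks. Macrophage genes had no member, and Schwann cell genes had 1, in the 3' UTR of Sox10 in the GFP+ list alone at rank 15.6.

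Cardiomyocyte genes carried exonic peaks in both populations. They had 29 GFP- members, of which 12 were found only in the GFP- list (41.4%, 25.5 to 59.3%), and 23 GFP+ members, of which 5 were found only in the GFP+ list (21.7%, 9.66 to 41.9%). Both intervals held the share of all peaks, 30.3% for GFP- and 13.4% for GFP+. Of the 22 shared regions 17 ranked lower in the GFP+ list, with a median difference of -4.60 points, beside 1615 of all 2667 exonic regions and -2.27 points, and since that sign turned with list length no direction is read from it. Ttn, which encodes the giant sarcomere protein titin, had 6 GFP- only members, all coding, with ranks of 26.5, 23.9, 12.6, 9.40, 7.29 and 1.08, and 3 GFP+ only members, also coding, with ranks of 29.1, 11.6 and 3.69. All 9 of these peaks ranked below 30, and titin exons held no larger peak found in 1 list alone. The 2 GFP- only members of Myom2, an M-band protein, in the same noncoding last exon, had ranks of 75.6 and 49.4. Myom2 also had a GFP+ only member, in coding exon 11 of 37, with a rank of 29.5.

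**Figure D4:**
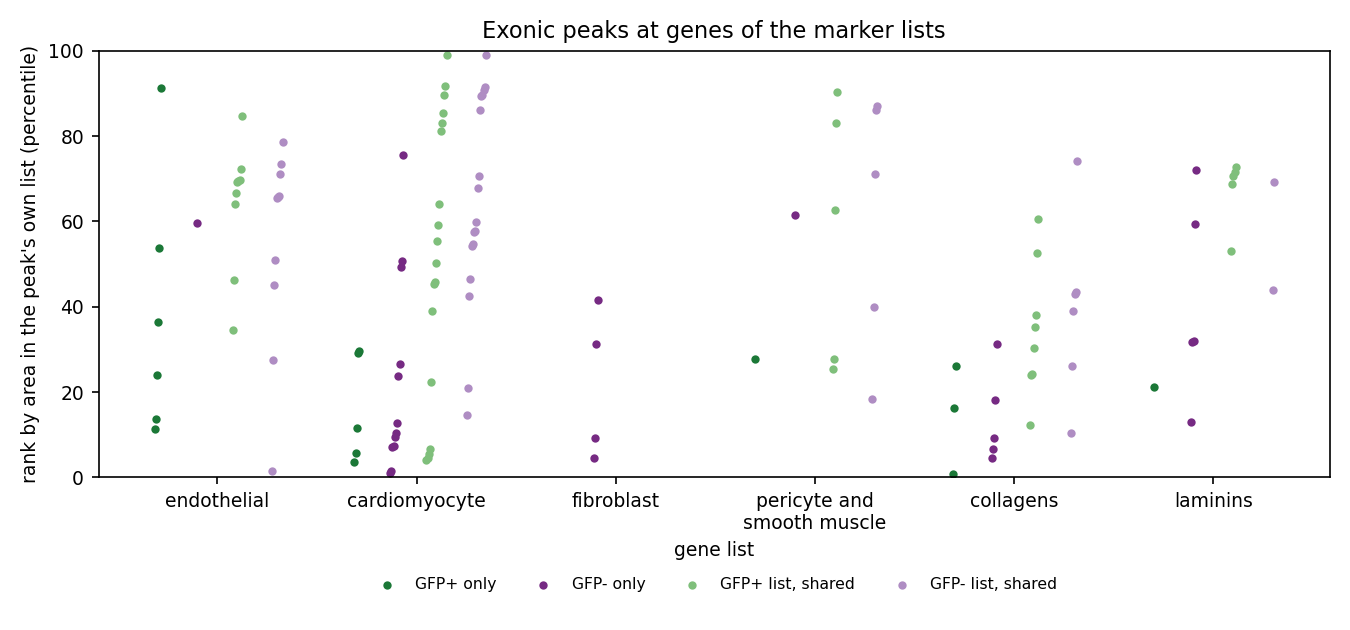
Percentile rank by area within the own list (y axis) of each exonic peak at genes of 6 lists (x axis), coloured by class, 1 point a peak. Endothelial genes show 6 dark green points (GFP+ only) and 1 dark purple point (GFP- only), and fibroblast genes show 4 dark purple points and no other.

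Longer gene lists were taken from the cell type sheets of the study's supplement, which rest on published single-cell RNA data, and gave the same order for endothelial and fibroblast genes. Genes of the marker lists can recur in these sheets, so the readings are not independent. Of 73 GFP+ members at endothelial sheet genes, 30 were found only in the GFP+ list (41.1%, 30.5 to 52.6%), and of 56 GFP- members 10 only in the GFP- list (17.9%, with an upper bound of 29.8%). Fibroblast sheet genes had the opposite order, with 5 of 47 GFP+ members (10.6%, 4.63 to 22.6%) and 37 of 73 GFP- members (50.7%, 39.5 to 61.8%). The first interval held the 13.4% of all GFP+ peaks, and the second lay above the 30.3% of all GFP- peaks. Cardiomyocyte sheet genes had 7 of 48 (14.6%, 7.25 to 27.2%) and 17 of 60 (28.3%, 18.5 to 40.8%), intervals that hold the shares of all peaks. Genes listed there as expressed without specificity had 33 of 159 (20.8%, 15.2 to 27.7%) and 52 of 178 (29.2%, 23.0 to 36.3%), and these intervals held the 16.8% and 29.4% of all exonic members. Against all peaks, the GFP+ interval of these genes lay above the 13.4%, and the GFP- interval held the 30.3%. Families of genes chosen by symbol were read against the same background of 13.4% and 30.3%. Zinc finger genes had 11.6% of 43 and 26.9% of 52 members in 1 list alone, and solute carriers 11.8% of 85 and 20% of 85. Semaphorins and plexins had 4 of 10 and 4 of 13, integrins 1 of 6 and 4 of 10, myosin chains 1 of 11 and 3 of 8, protocadherins 4 of 8 and 3 of 7, and Hox genes 2 of 4 and 0 of 3, which allows a share of up to 56.1%. The interval of solute carriers in the GFP- list (12.9 to 29.7%) lay below the 30.3%. In the GFP+ list the intervals of semaphorins and plexins (16.8 to 68.7%), protocadherins (21.5 to 78.5%) and Hox genes (15.0 to 85.0%) lay above the 13.4%. The other intervals of these families held the background, and at the smaller counts the intervals are wide. Against the 16.8% and 29.4% of all exonic members, only the GFP+ interval of protocadherins lay apart among these families. The integrin member found only in GFP+ nuclei was at Itgb3bp, which the symbol pattern takes although its product is a centromere protein.

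Members were spread over many genes. In both lists together 3360 of 21951 annotated protein-coding genes had a member, and 491 had a GFP+ only and 936 a GFP- only member, with 37 genes in both groups. Of these, 336 and 702 had no other member. Only 16 genes had 2 or more GFP+ only members, and 73 had 2 or more GFP- only members. Ttn had 3 GFP+ only members and the others had 2 each, of which Prag1, Spata13, Il6ra and Tle1 had the largest summed area. Spata13 and Il6ra, a receptor subunit for interleukin 6, each held both in the 3' UTR of their last exon, and Tle1, a corepressor, held both in internal coding exons 16 and 17 of 20, with ranks of 13.1 and 41.4. Among GFP- only members Smim14 and Dst, which encodes the cytoskeletal linker dystonin, had 4 each, and Itsn1 and Jmjd1c had 3 each. The 4 of Dst were coding and those of Smim14, up to rank 76.6, lay in noncoding transcripts. Genes with many shared members included Tmbim1 and Macf1 with 5 each and Synpo and Mical3 with 4 each in the GFP+ list, and Synpo and Notch1 with 5 each and Tmbim1 and Mical3 with 4 each in the GFP- list. Macf1, a relative of dystonin that links actin and microtubules, had all 5 in internal coding exons, at ranks from 39.4 to 70.9. Peaks of 1 gene are not independent, and with only the largest member of each gene in a class the coding share was 45.6% of 491 for GFP+ only and 36.1% of 936 for GFP- only.

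Of the words of cell type regulators, that of ETS factors had a like share in exonic and in all GFP+ only peaks. That of SOX factors had a lower share in exons, beyond its interval only in the 200 bp window. The ETS word occurred in 29 of 508 GFP+ only members (5.71%, 4.004 to 8.08%), 32 of 1020 GFP- only members (3.14%, 2.23 to 4.40%) and 59 of 2510 shared GFP+ members (2.35%, 1.83 to 3.02%), beside 5.92%, 3.23% and 2.76% of all peaks of these classes. For the SOX word the GFP+ only members had 3.35% (2.10 to 5.29%) against 5.86% of all GFP+ only peaks and 6.10% of intronic ones (5.39 to 6.90%). In the other windows the share of members was also the lower, but its interval held the value of all GFP+ only peaks. At 100 bp the shares were 2.76% (1.65 to 4.57%) of members and 3.27% of all GFP+ only peaks, and at 400 bp 6.69% (4.83 to 9.21%) and 9.13%. The AP-1 word was found in 11.8% of GFP- only members (9.93 to 13.9%) and in 6.89% of GFP+ only members (4.995 to 9.43%), beside 14.8% and 8.68% of all peaks of these classes, and the second interval held the value of all peaks. The TCF21 word was found in 4.61% (3.48 to 6.07%) and 3.54% (2.25 to 5.53%) of these members, against 5.52% and 2.11% of all peaks. The first TCF21 interval held the value of all peaks. The second lay above its value of all peaks and overlapped the first. The word of MEF2 factors, regulators of muscle genes, was rare in exons, with 1.16% of shared GFP+ members (0.806 to 1.65%) against 2.57% of shared intronic peaks (2.36 to 2.80%).

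The CTCF word was more frequent in exonic than in intronic peaks, both among shared and among GFP- only peaks. The word CAGGGGGC of CTCF, a factor that organises chromatin loops, occurred in 155 of 2510 shared GFP+ members (6.18%, 5.30 to 7.19%), against 2.73% of shared intronic peaks (2.51 to 2.96%) and 3.49% of all shared peaks. Coding members (6.46%) and 3' UTR members (6.78%) of this class had similar shares. The GFP- only members had a lower share, 3.43% (2.48 to 4.73%), but it too lay above that of GFP- only intronic peaks, 1.52% (1.29 to 1.78%). The GFP+ only members had 2.56%, with an interval that held the 1.90% of GFP+ only intronic peaks. The palindromic word CCCNNGGG of EBF factors occurred in 9.16% of shared GFP+ members (8.10 to 10.4%) and 7.35% of shared intronic peaks (7.001 to 7.72%), but also in 9.17% of all shared peaks, and at 100 bp the exonic interval (4.38%, 3.65 to 5.26%) held the intronic value of 3.87%. The GATA word AGATAAG was less frequent in exons, at 2.59% of shared GFP+ members (2.04 to 3.29%) and 4.07% of shared intronic peaks (3.80 to 4.35%). Exonic windows were richer in GC, with a median of 55% for shared GFP+ members and 52% for shared intronic peaks, and in coding members it was 59%, and the part of this composition in the word shares was not tested. Among 32851 promoters of 300 bp from RefSeq, 3.33% held the ETS, 3.66% the SOX, 7.81% the AP-1, 1.59% the TCF21, 0.517% the MEF2, 3.04% the GATA, 2.87% the CTCF and 13.7% the EBF word, in windows longer than those around summits. All words were searched on both strands, and a match is a description of the letters only.

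**Figure D5:**
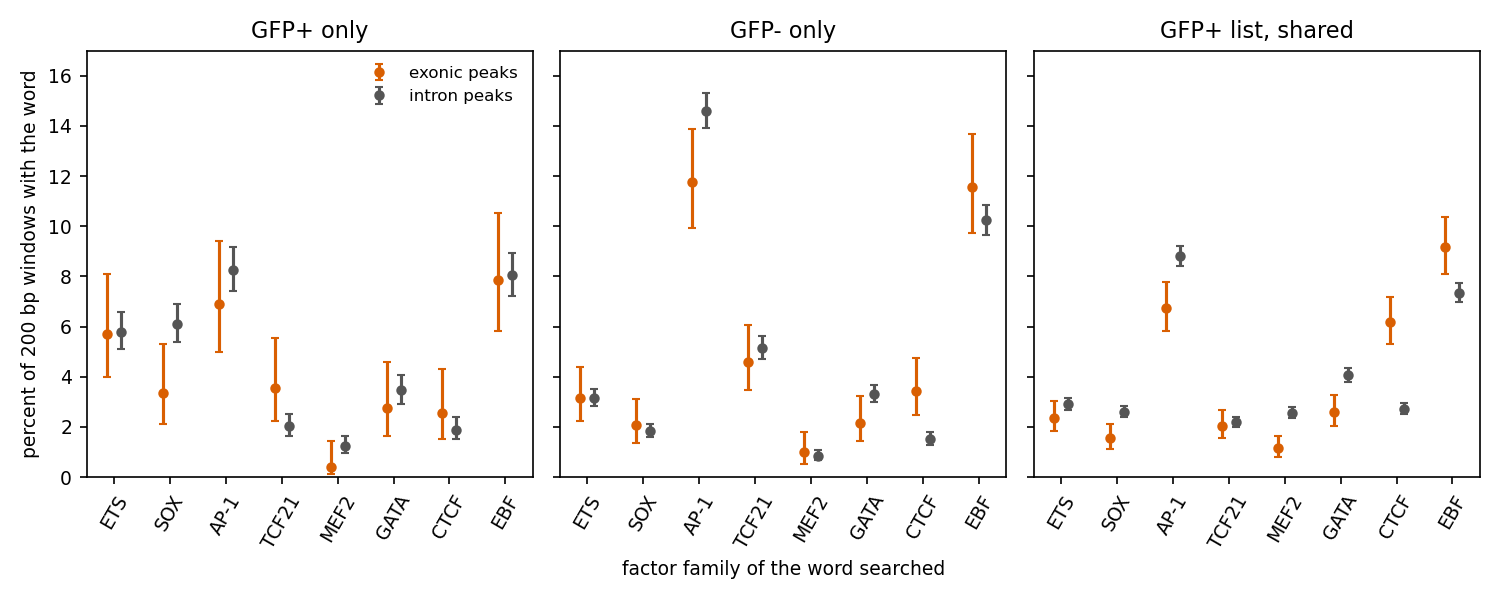
Percent of 200 bp windows around summits that hold the word of each factor family (y axis, error bars are Wilson 95% intervals) for exonic peaks in orange and intronic peaks in the same range of distance from starts in grey, in the GFP+ only, GFP- only and shared GFP+ classes. Orange lies below grey for the SOX word in the left panel (3.35% and 6.10%) and above it for the CTCF word in the right panel (6.18% and 2.73%). For the CTCF word it also lies above grey in the GFP- only class (3.43% and 1.52%).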

How the data were processed

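ATAC-Seq was made from 2 replicates each of GFP+ and GFP- nuclei sorted from hearts. The authors trimmed reads (fastp), aligned them to mm10 (Bowtie2, 2.3.5.1 in the submitters' processing notes), filtered them by mapping quality (SAMtools) and removed duplicates (Picard). Libraries were downsampled to a common number of reads before Genrich, run in ATAC mode, made 1 list per population from both replicates, without chromosomes M and Y and blacklisted regions. The authors deposited for each peak an area, which is a signal summed along the peak and at least 200, a score, which is the area per bp with a cap, and a -log10 p-value for the summit. Downsampling evens depth, but the lists still differ in length, with 78912 GFP- peaks (median 469 bp) and 65008 GFP+ peaks (459 bp).

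Summits were placed on GENCODE M21 (GRCm38), sequence was read from GRCm38.p6, and distance was that to the nearest protein-coding start. Where several transcripts had an exon at the summit, the reference transcript was a protein-coding one, then the APPRIS principal one, then that with the longest coding sequence. Wilson, Newcombe, exact Poisson and exact binomial intervals are at 95%. Python 3.11.15, numpy 2.4.6, pandas 2.3.3, scipy 1.17.1, pysam 0.24.0 and matplotlib 3.10.9 were used, and the overlap and classification steps were tested on simulated data.

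The genes named are, per class, the 5 largest members by area and the 5 with most members, the 5 shared regions with the largest rank difference in each direction, the members nearest the distance limits, and up to 4 examples a marker list; a few family members were named after their values were seen. Some genes that this rule takes are not reported here. The members, lists and words were chosen with earlier results of these data known. Alternatives changed the overlap, area limit, list length, distance, starts, exons, peak position, transcript choice, ranking and word window.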

Additional observations from a re-analysis of the deposited data

How the results depend on the processing

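No paired analysis was possible because each population has 1 peak list made from both replicates, and for the same reason no replicate could be left out. With an overlap of at least 50% of both peaks, 30.7% of GFP+ and 40.1% of GFP- members lay in 1 list and 41.1% of GFP+ only members were coding. With only peaks at or above the median area of their list, a limit set before the overlap, there were 1236 GFP+ and 1517 GFP- members, 15.1% and 31.2% of them in 1 list, the coding share was 31.016% in GFP+ only and 31.013% in GFP- only members (a difference of 0.00338 points), the last exon share was 55.6% in GFP+ only and 61.0% in shared GFP+ members, and the rank difference was -3.26 points. With the GFP- list limited to the length of the GFP+ list, 25.2% of GFP+ and 21.3% of GFP- members lay in 1 list and the rank difference was 3.16 points. With exons of protein-coding transcripts only, the coding share was 56.4% in GFP+ only, 48.61% in GFP- only and 48.64% in shared GFP+ members, and the last exon share 62.6% in GFP- only and 62.96% in shared GFP+ members. For GFP+ only, GFP- only and shared GFP+ members, the last exon share was 54.8%, 64.7% and 64.8% with starts of transcripts of any type, and 56.9%, 63.4% and 62.7% for the last exon of any transcript. In shared GFP+ members it was 60.8% at over 2000 bp from starts and 55.1% by the midpoint of the peak, where the coding share was 39.6%. Windows of 100 and 400 bp held the ETS word in 2.95% and 8.27% of GFP+ only members, and the AP-1 word in 6.86% and 16.6% and the TCF21 word in 2.65% and 6.96% of GFP- only members. The SOX word was in 6.69% of GFP+ only members at 400 bp, and the MEF2 word in 0.558% of shared GFP+ members at 100 bp.

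The coding difference between GFP+ only and GFP- only members was 5.31 to 9.75 points under the alternatives other than the area limit. The last exon difference was negative under each alternative, from -12.3 to -4.09 points, and its interval included 0 with the area limit (-12.5 to 4.17). The causes of these changes were not tested. The rank difference has no value for the alternative overlaps. The depth of a library limits which small peaks are listed, so that a peak in 1 list may have been below the threshold in the other.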
